A study of Homo sapiens with 10 samples.

Results

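Human cells with the highest share of ribosomal protein mRNA were picked out of microglia that had been grown in mouse brain. They were chosen by their measured ribosomal protein share, the percentage of a cell's human unique molecular identifiers (UMIs) that lie in genes whose symbol begins with RPL or RPS followed by a digit (94 genes, names with a hyphen left out), and the 8% of cells with the highest share in each library were taken. Of 49989 human cells, 3997 were members and 45992 formed the other cells. Because the members were selected on these counts, every difference between them and the other cells is given as a description without a test, and tests were run only between groups of mice.

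Ribosomes are built from ribosomal RNA and from ribosomal proteins that are made in matched amounts. Most of the mRNAs of these proteins begin with a C followed by a run of pyrimidines, the 5′ terminal oligopyrimidine (TOP) tract, which lets growth signals through mTOR switch their translation on or off together. Elongation factors and a few other translation genes carry the same tract. Microglia, the resident macrophages of the brain, survey tissue in a homeostatic state and change their expression near amyloid plaques.

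The cells came from H9 (WA09) human embryonic stem cells, a single established line, which had been differentiated into microglial progenitors and grafted into mouse pups. All hosts carried the App NL-G-F knock-in, which drives amyloid plaques, and by the study's methods lacked Rag2 and Il2rg and expressed human CSF1. Of 27 mice, 11 were App NL-G-F Csf1r ΔFIRE/ΔFIRE (labelled APP-NLGF x FIRE KO), which derive from 1 founder and have no microglia of their own (FIRE mice), with 6 given Lecanemab, an antibody to amyloid protofibrils, and 5 given human IgG1. The other 16 (labelled APP-NLGF) had the FIRE enhancer intact, with 7 given Lecanemab and 9 given IgG1, and by the methods host microglia of such mice were depleted with BLZ945 before grafting. By the labels mice of both sexes received 10 mg/kg into the peritoneum each week for 8 weeks from 4 months of age. The methods also describe grafted mice with the enhancer intact that were treated from a later age, and whether the mice here are those is not stated. Brains were dissociated with actinomycin D, which blocks new transcription, and cells were sorted on CD11b and human CD45.

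The 27 hashtagged mice were spread over 5 libraries. The mice of libraries 1 and 2 were identical, and so were those of libraries 4 and 5, which makes 3 pools. The libraries held 6373 to 14888 human cells with 27050909 to 51131016 human UMIs, and 14 to 49 barcodes were shared between the human cells of any 2 libraries. The labels of library 4 conflict with one another, and its mice were named through library 5. AB09, an IgG1-treated mouse with the enhancer intact, gave 1 human cell and was left out, so 26 mice entered the tests.

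The threshold cut a continuous range. In libraries 1 to 5 the lowest member had a ribosomal protein share of 14.8%, 16.6%, 24.6%, 21.7% and 22.3%, and the highest cell outside lay just under it, for example 21.735% inside and 21.732% outside in library 4. Within 1 percentage point of the threshold lay 940 members and 1204 other cells, so 20.1% to 26.3% of a library's members were close to it. The median share of members was 17.3%, 19.1%, 27.6%, 24.7% and 25.5% in libraries 1 to 5, against 7.30%, 8.38%, 13.7%, 12.6% and 12.9% in the other cells. The highest cell of a library reached 45.7% to 52.4%. The members are therefore the upper end of a range, with a place of the threshold that differed between libraries, and not a separate group.

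**Figure D1:**
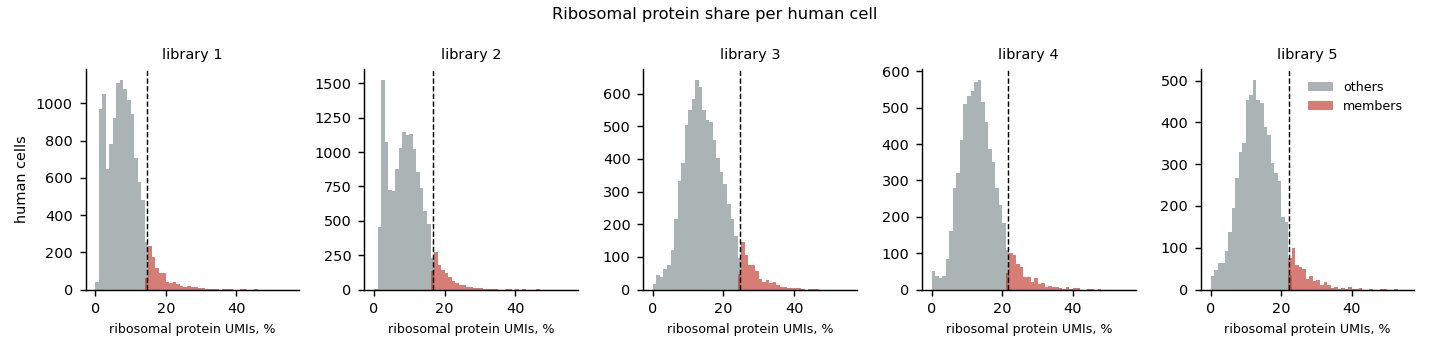
Number of human cells (y axis) by ribosomal protein share of human UMIs in percent (x axis) in each library, members in red, other cells in grey, with a dashed line at the lowest member. No gap separates the members, and the threshold lies between 14.8% and 24.6%.

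The share of a cell changed little with the draw of its UMIs. When the UMIs of each cell were dealt at random into 2 equal parts, the shares of both parts had a Spearman correlation of 0.97 to 0.98 over the 6373 to 14888 cells of a library, a description, since both parts come from the same cells. Cells chosen on one part had a median share of 17.3% to 27.8% in the other, against 7.27% to 13.7% in the remaining cells.

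The start sites of genes that stood high in the members are printed because they carry the sequence feature that defines the TOP class. Each line gives the 10 bases before and the 20 bases from the RefSeq start (GRCh38.p14), 5′ to 3′ on the transcribed strand. Capitals mark a C followed by at least 4 C or T that starts within 5 bases of that start.
RPL34 (large subunit protein, chr4:108620566-108620595, plus strand): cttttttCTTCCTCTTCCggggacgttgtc
RPS13 (small subunit protein, chr11:17077648-17077677, minus strand): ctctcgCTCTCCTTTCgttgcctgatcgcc
TPT1 (translationally controlled tumor protein, chr13:45341164-45341193, minus strand): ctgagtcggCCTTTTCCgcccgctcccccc
EEF1A1 (elongation factor, chr6:73521013-73521042, minus strand): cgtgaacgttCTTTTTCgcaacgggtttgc
RACK1 (small subunit protein, chr5:181243887-181243916, minus strand): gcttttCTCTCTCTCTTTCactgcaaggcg
NACA (nascent chain binding, chr12:56725280-56725309, minus strand): ctcgctcggtCTTTCTgccgccatcttggt
The last 3 lines show ribosomal protein genes at the low end of the ratios, for comparison.
RPL22L1 (paralog of RPL22, chr3:170870176-170870205, minus strand): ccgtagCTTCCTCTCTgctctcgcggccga
RPS27L (paralog of RPS27, chr15:63157458-63157487, minus strand): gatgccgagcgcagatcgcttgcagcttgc
RPS26 (small subunit protein, chr12:56041908-56041937, plus strand): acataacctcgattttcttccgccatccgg

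By this definition 48 of 61 measured ribosomal proteins of the rule with a promoter entry had a tract (78.7%), against 5749 of 27305 promoters in the table (21.1%). Among the 1480 measured genes outside the rule, 1200 had an entry and 300 of these a tract. RPL22L1 had a tract and the smallest ratio of the rule's genes, and RPS27L and RPS26 had small ratios and no tract in this window. Rule genes with and without a tract had median log2 ratios of 1.19 and 1.17. At least 1.5 times higher in all 5 libraries were 47 of 48 with a tract and 11 of 13 without. The choice of members set the height of these genes, and the part of the tract was not tested.

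Levels are given as counts per 1000000 human UMIs outside the rule's genes (CPM), so that the genes used for the choice do not depress all others. A gene was described where it reached 100 CPM in the members or the other cells of every library. RPL34, a marker named for these cells, stood at 5115, 6041, 8148, 7215 and 7175 in the members of libraries 1 to 5 and at 1941, 2391, 3454, 2918 and 2938 in the other cells. The members were higher in 5 of 5 libraries and 26 of 26 mice, with a median log2 ratio of 1.31. RPS15A (1.27) and RPS13 (1.26), also proteins of the small subunit, had the same direction in 26 of 26 mice. All 3 are genes of the rule, so their height was fixed by it.

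The height of the rule's genes follows from the choice, and it was spread over most of them. Of 77 measured rule genes, 73 were at least 1.5 times higher in the members of all 5 libraries, with a median log2 ratio of 1.19. RPL14 (1.33), RPS3A (1.31), RPL34, RPL26 (1.29) and RPS23 (1.27) were at the top. Among the smallest ratios were those of RPS27L (0.57), RPS26 (0.57), RPS19BP1 (0.55) and RPL22L1 (0.20). RPL22L1 was at 206 CPM in both members and other cells of library 3. RPS19BP1 encodes a protein that binds RPS19 and is no ribosomal protein. Reads of ribosomal protein genes can match their many processed pseudogenes, so the value of a single gene is less certain than that of the group.

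Ribosomal proteins whose symbols escape the rule followed the same pattern. All 7 of them were at least 1.5 times higher in all 5 libraries, against a background of 148 of 1480 genes outside the rule (10.0% higher, and 8.18% lower by the same measure). The stalk proteins RPLP0, RPLP1 and RPLP2 had median log2 ratios of 0.98, 1.14 and 1.08. RPSA, FAU and RACK1, which encode proteins of the small subunit, had 1.07, 1.11 and 1.28. Their summed level was 20153 to 33004 CPM in members and 8578 to 15901 in other cells. These genes come from the same cells, so their height follows the choice and is no independent support for it.

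Translation factors of the TOP class were high as a group. Of 26 measured, 17 passed the 1.5-fold criterion upward and 0 downward, with a median log2 ratio of 0.97, against a median of -0.04 over the 1480 genes. TPT1, the fourth marker and outside the rule, stood at 10785, 11809, 14156, 11931 and 13791 CPM in the members of libraries 1 to 5 and at 4409, 4981, 7007, 5247 and 5845 in the others. The log2 ratio of TPT1 was 1.24 at the median and 1.01 at the lowest, in library 3. EEF1A1, which brings transfer RNA to the ribosome, was at 9556, 10918, 11037, 7326 and 8883 in members and at 3741, 4316, 4716, 3489 and 3913 in others. EEF1G (1.23), NACA (1.21), which binds nascent chains, and the initiation factor subunit EIF3H (1.17) were among the 12 highest genes outside the rule. PABPC1 (0.59) and EIF4B (0.65) were lower in the list, and EIF4A2 was at -0.15. Genes that host small nucleolar RNAs, whose spliced transcripts also begin with the tract, were higher in 6 of 7 (SNHG29 1.17, GAS5 1.05). NOP53, a nucleolar factor of the large subunit, had 1.29, whereas the 2 measured genes of a wider ribosome biogenesis list passed in neither direction.

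Genes outside the rule with a tract at the start were more often high. Of 300 with a tract 22.3% passed upward, and of 900 without a tract 6.11% did. Downward the shares were 6% and 8.78%. As a share of the genes that were high, 67 of 122 with an entry had a tract (54.9%), as did 18 of 97 low genes (18.6%). Not every high gene of this kind belongs to translation, since HLA-DPB1 also had a match.
HLA-DPB1 (MHC class II beta chain, chr6:33075980-33076009, plus strand): tttagcgagtCCTTCTTTTCCTgactgcag

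MHC class II genes, which present peptides to helper T cells, included HLA-DPB1, with the largest ratio among the measured genes outside the rule. HLA-DPB1 was at 138, 145, 339, 229 and 242 CPM in the members of libraries 1 to 5 and at 35.7, 37.2, 117, 71.3 and 76.2 in the other cells, a median log2 ratio of 1.67. It reached 100 CPM through the members alone in 4 of 5 libraries. HLA-DRA was at 614, 733, 1591, 1206 and 1208 in members and at 214, 265, 798, 533 and 554 in others, a ratio of 1.18. Of 8 measured genes of the list 7 passed upward, with a median of 0.98. The invariant chain CD74 had 0.68, HLA-DPA1 1.38 and HLA-DRB1 0.92, and HLA-DMB, a peptide loading chaperone, had 0.06. HLA-DRB1 and HLA-DRB5 are near-identical, so their separate values are uncertain.

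The class II height was uneven among members. The class II share of a member's UMIs was 0.121% to 0.333% at the median and 0.371% to 1.04% at the upper quartile, against 0.0786% to 0.152% and 0.156% to 0.449% in other cells. Of the members, 61.7% to 66.4% lay above the median of the others. MHC class I and its loading genes passed in 0 of 9, with a median of -0.05. FCER1A, a mast and dendritic cell receptor subunit with a level below the measured range, had a median log2 ratio of 2.05 and stood at 81.7, 93.7, 130, 63.8 and 93.9 CPM in the members of libraries 1 to 5, against 14.5, 21.9, 45.7, 20.2 and 19.2 in the others. PLAC8, also low, had 1.482.

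Genes of energy supply were higher but less so. Of 48 measured nuclear genes of oxidative phosphorylation, 18 passed upward and 0 downward, with a median of 0.66 (UQCRB of complex III 1.16, COX7C of complex IV 1.02). Of 11 mitochondrial-encoded genes 0 passed, with a median of 0.34. Of 17 actin and cell shape genes 3 passed (TMSB4X 0.87, TMSB10 0.84, ACTG1 0.76). Of 12 measured plaque-response genes 3 passed upward, LGALS1 (1.18), a galectin, APOC1 (0.95), an apolipoprotein, and CSTB (0.77), a cathepsin inhibitor, whereas APOE was at 0.14 and SPP1, which encodes osteopontin, at -0.55. LGALS1 reached 100 CPM through the members alone in libraries 1 and 2, where other cells were at 79.1 and 92.3. Its median log2 ratio was 2.64 among cells below the median UMIs of the other cells and 0.81 among the remaining cells.

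Low in the members were both measured RNAs that stay in the nucleus. MALAT1, a long noncoding RNA held in nuclear speckles, was at 46769, 37173, 14539, 26395 and 17368 CPM in the members of libraries 1 to 5 and at 89756, 83578, 45140, 52725 and 45898 in the other cells. NEAT1, the scaffold of paraspeckles, had a log2 ratio of -1.25 and MALAT1 of -1.17, and both were lower in 26 of 26 mice. The signaling regulator RGS1 (-1.27), SRGAP2 (-1.26), PARP14 (-1.25) and CH25H (-1.16), which makes 25-hydroxycholesterol, were also among the 12 lowest. Of 19 heat shock and endoplasmic reticulum chaperone genes 2 passed downward, HSPA5 at -1.06 and HSPA1B at -1.07, and HSP90B1 was at -0.96. HSPA1B is near-identical to HSPA1A (-1.03), so their separate values are uncertain. The 2 of 19 chaperones lay near the background of 8.18%. All 12 immediate early genes measured had negative ratios, but 0 passed in all 5 libraries (median -0.74, FOS -0.70, JUN -0.73).

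The defining markers of microglia were present. The summed level of 13 microglia markers was 24689 to 28741 CPM in members and 24299 to 29442 in others, and all 13 were in the measured range. AIF1 (0.75), TYROBP (0.42) and SPI1 (0.39) leaned upward, while the homeostatic receptors P2RY12 (-0.51), CX3CR1 (-0.52) and P2RY13 (-0.67) were lower, P2RY13 past the criterion in all 5 libraries. Of 20 homeostatic genes 0 passed upward and 3 downward. Among markers of other cells, the summed level of border macrophage genes was 2094 to 2805 CPM in members and 2267 to 2984 in others, and that of monocyte and neutrophil genes 423 to 600 and 515 to 590. LYZ of the latter list, below the measured range, had a median log2 ratio of 1.94 with a range of 0.37 to 3.02 over libraries. The 1 measured gene of that list was lower in both kinds of members described below. Its log2 ratio was -1.15 in members poor in MALAT1 and -0.34 in members that kept it. The dendritic and mast cell list summed to 223 to 281 against 155 to 194, with the mast cell genes KIT, CPA3, HDC and TPSAB1 at 0 in both. Lymphocyte genes summed to 24.5 to 42.8 against 33.9 to 40.1, stem and progenitor genes to 8.18 to 11.7 against 9.37 to 11.4, neuronal genes to at most 1.42 against 2.51, red blood cell genes to at most 0.648 against 0.789, and astrocyte and oligodendrocyte genes to 242 to 440 against 386 to 570. The part of these cells in the results was not tested.

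Members were deeper than the other cells in 4 of 5 libraries. Median human UMIs per member were 4461, 3347, 6134.5, 3884 and 3299 in libraries 1 to 5, against 3637, 2566, 3985, 3657 and 3799 in the other cells, so library 5 went the other way. Over the cells of a library the ribosomal protein share had a Spearman correlation of 0.26 to 0.54 with UMIs, both from the same counts. The decile of cells with most UMIs held 12.97% to 35.0% of a library's members and the decile with fewest 2.29% to 16.2%. Log2 ratios differed between cells below the median UMIs of the other cells and the remaining cells. In this order they were 1.56 and 0.90 for ribosomal proteins outside the rule and 1.32 and 0.80 for TOP class factors. Oxidative phosphorylation had 1.19 and 0.44, immediate early genes -1.74 and -0.50, and MALAT1 -2.65 and -0.78. Class II genes went the other way, at 0.66 and 0.99.

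Members nevertheless had fewer genes at equal depth. Thinned to 1000 UMIs per cell, the median member had 599, 572, 522.5, 527 and 504 detected genes, against 657, 628, 628, 624 and 621. Without thinning it had 1838, 1412, 1844, 1360 and 1175, against 1768.5, 1311, 1735, 1644 and 1672, so more in libraries 1 to 3. The thinned count includes the rule's genes, on which the members were chosen. Their mitochondrial share was 6.52%, 6.84%, 3.62%, 9.10% and 8.76%, against 5.69%, 6.74%, 3.59%, 7.79% and 7.52%. It was higher in members in 5 of 5 libraries, with the smallest gaps in libraries 2 and 3. Mouse UMIs made up 0.562% to 1.27% in members and 0.678% to 1.26% in others.

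The MALAT1 share had separate low and high modes among the members. It was below 0.5% of UMIs in 33.2% to 57.4% of a library's members and in 0.888% to 6.19% of its other cells. A cell was called poor in MALAT1 when its share lay below the 10th percentile of the other cells of its library, a limit of 0.896% to 4.96% set after these values had been seen. By this limit 2576 of 3997 members were poor (59.6% to 71.4% by library), against 10.0% of the other cells by construction. In library 1, with the limit of 4.96%, 71.4% of members were poor but 34.8% lay below 0.5%. Members called poor there can thus have as much MALAT1 as members called kept elsewhere, whose medians were 1.93% to 4.71% in libraries 2 to 5. Members made up 34.1% to 38.3% of all poor cells and 2.69% to 3.76% of the cells that kept MALAT1.

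**Figure D2:**
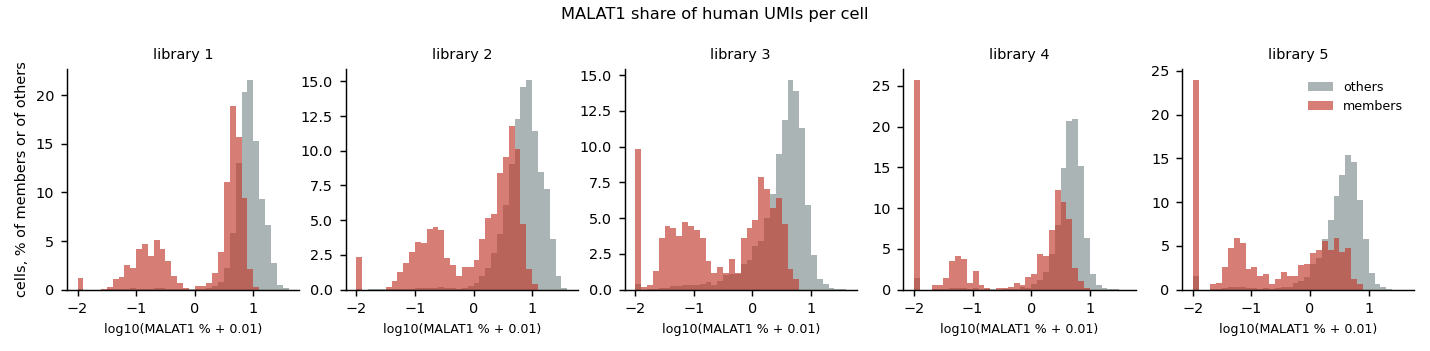
Distribution of the log10 MALAT1 share of human UMIs (x axis, percent plus 0.01) over members in red and other cells in grey, as percent of each (y axis), in each library. The members have a second mode near or at no MALAT1, where 33.2% to 57.4% of them lie below a share of 0.5%.

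The MALAT1-poor members were shallower and carried fewer genes. Their median UMIs were 2518 to 5122, against 4222 to 7287 in members that kept MALAT1, their genes at 1000 UMIs 473 to 582 against 544 to 617, and their mitochondrial share 3.79% to 10.7% against 3.30% to 7.98%. The mitochondrial share of other cells was 4.05% to 10.3% where they were poor in MALAT1 and 3.55% to 7.49% where they kept it, and members that kept MALAT1 lay below other cells that kept it in 4 of 5 libraries. These shares are of all human UMIs, which include the rule's genes. As CPM, the 11 mitochondrial-encoded genes had a median log2 ratio of 0.11 in members that kept MALAT1 and 0.49 in poor members. Both ratios are against the other cells that kept MALAT1. Compared with these other cells, 255 genes were at least 1.5 times higher in the poor members in all 5 libraries (17.2%) and 230 lower (15.5%). Of the 48 oxidative phosphorylation genes 39 passed upward, and of 12 immediate early genes 8 passed downward, with a median of -1.46. Named examples were LGALS1 (1.64), SELENOP (1.43), a selenium carrier, APOC1 (1.35) and FTH1 (1.30), a ferritin subunit, on the high side and JUN (-2.24), FOSB (-2.09), KLF2 (-2.05) and HSPA1B (-2.25) on the low side.

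The 1421 members that kept MALAT1 had a much narrower profile, but they were also less extreme in the value used for the choice. Their median ribosomal protein share was 16.02% to 26.6% by library. It lay below that of the poor members, 18.23% to 28.53%, in each library. Against the same other cells 67 genes were higher (4.53%) and 15 lower (1.01%). The 7 ribosomal proteins outside the rule still passed upward in 7 of 7 (median 0.97), TOP class factors in 17 of 26 (median 0.91) and snoRNA hosts in 6 of 7. Class II genes passed in 7 of 8, with a median of 1.17, against 6 of 8 and 0.99 in poor members. HLA-DPB1 had 1.79 in kept and 1.84 in poor members. Oxidative phosphorylation passed in 6 of 48 and immediate early genes in 0 of 12 (median -0.29).

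Among the 15 genes that were lower in members that kept MALAT1 were HSPA5 (-1.10), the main chaperone of the endoplasmic reticulum, SPP1 (-0.95), and IFI6 (-1.18) and PARP14 (-0.98), both induced by interferon. HSP90B1 and PDIA3 of the same compartment were at -0.83 and -0.87 and did not pass in all 5 libraries. In the poor members SPP1 was at -0.16 and IFI6 at -0.18, nearer to 0. The part of depth, mitochondrial share and ribosomal protein share in the profiles of both kinds of members was not tested.

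Across mice the members made up 3.79% to 26.1% of human cells. FIRE mice had 6.38% ± 1.86 (SD, n = 6) after Lecanemab and 6.16% ± 2.14 (n = 5) after IgG1, ranging from 4.65% to 9.58% and from 3.79% to 8.36%. Mice with the enhancer intact had 8.64% ± 1.96 (n = 7) after Lecanemab and 10.4% ± 6.39 (n = 8) after IgG1, ranging from 6.58% to 12.3% and from 6.12% to 26.1%. The treatment groups overlapped in both genotypes.

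No difference by treatment was found in the share of members. Weighted within pools, Lecanemab minus IgG1 was -0.43 points in FIRE mice (two-sided exact permutation within pools, p = 0.678, 90 permutations, smallest p possible 0.0111) and -1.39 points in mice with the enhancer intact (exact permutation p = 0.777, 1050 permutations). By pool the FIRE difference was -2.70 points (libraries 1 and 2), 0.678 (library 3) and 0.22 (libraries 4 and 5), and the difference with the enhancer intact was 0.30, -9.004 and 0.42 in the same order. The mean ribosomal protein share over all cells of a mouse, which needs no threshold, differed by 0.11 points in FIRE mice (exact permutation p = 0.822) and by -0.46 points in the others (exact permutation p = 0.708). Adjusted over these 4 tests by Benjamini and Hochberg all exact p were 0.822. The difference of the treatment differences between genotypes had an exact permutation p of 0.836 for the share of members and 0.593 for the mean. In the enhancer-intact mice the share rested on AB38, which is described next: without it the difference was 0.44 points.

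One mouse stood apart. AB38, an IgG1-treated mouse of library 3 with the enhancer intact, had 293 members among 1124 human cells, 26.1%, against 3.79% to 7.09% in the other 5 mice of the library. It gave 12.8% of the library's cells and 41.9% of its members. Its cells had a median of 6003.5 UMIs against 3888, and 588.5 hashtag UMIs against 155. When the 8% were taken within deciles of cells by UMIs, AB38 still had 19.0%, against 5.57% to 7.73% in the other 5 mice. Its share of both kinds was high, 15.5% for members poor in MALAT1 and 10.6% for members that kept it.

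The host genotype went with the share of members, a comparison added after the shares had been seen. The adjusted p given below, for the share and for the mean share, do not account for that choice. FIRE mice had 3.79%, 6.15% and 9.58% at the lowest, the median and the highest of 11, and mice with the enhancer intact 6.12%, 8.29% and 26.1% of 15. FIRE minus intact was -3.49 points within pools (two-sided exact permutation of genotypes within pools, n = 11 and 15, p = 0.00192, 604800 permutations, Benjamini-Hochberg adjusted over 6 tests of shares 0.00576). The mean was lower in FIRE mice in 3 of 3 pools, at 4.26% ± 0.461 (n = 3) against 13.1% ± 11.2 (n = 3) for library 3, 6.56% ± 1.86 (n = 3) against 8.75% ± 0.866 (n = 7) for the pool of libraries 1 and 2, and 7.33% ± 1.62 (n = 5) against 8.70% ± 2.13 (n = 5) for the remaining pool. Without AB38 the difference was -1.87 points (exact permutation p = 0.00367, n = 11 and 14).

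Because 8% of each library were taken, many members in 1 mouse leave fewer for the others. The mean ribosomal protein share per mouse, which is free of this, was 1.31 points lower in FIRE mice within pools (difference -1.31, exact permutation p = 0.00155, n = 11 and 15, adjusted over 6 tests 0.00576), and the difference was -0.863 points without AB38 (exact permutation p = 0.00323, n = 11 and 14). Taken within deciles of UMIs the difference in the share was -2.53 points (exact permutation p = 0.0110, n = 11 and 15), and without the 10% of cells lowest in MALAT1 it was -4.06 points (exact permutation p = 0.00463, n = 11 and 15). Without AB38 these became -1.57 points (exact permutation p = 0.0220, n = 11 and 14) and -2.48 points (exact permutation p = 0.00928, n = 11 and 14). By treatment it was -2.28 points among Lecanemab-treated mice (exact permutation p = 0.0600, n = 6 and 7) and -4.83 points among IgG1-treated mice (exact permutation p = 0.0556, n = 5 and 8), the latter -1.16 points without AB38 (exact permutation p = 0.133, n = 5 and 7). The genotypes are those of the labels, which give unequal numbers of FIRE mice by treatment where the study describes equal ones, so an IgG1-treated FIRE mouse may be labelled as having the enhancer intact. Genotype goes with the depletion of host microglia by BLZ945 that the methods give for mice with the enhancer intact, and may go with age at treatment, so that these cannot be told apart. Mice of either genotype may also come from different graftings, which the labels do not give.

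Gene levels within the members were compared between treatments with counts summed per mouse. In FIRE mice 0 of 5394 genes passed an adjusted p of 0.05 by the quasi-likelihood F test of edgeR, which included a pool term (0.00%), 361 had an unadjusted p below 0.05 (6.69%), and DESeq2 called 0 with 173 unadjusted. In mice with the enhancer intact 0 of 7735 genes passed in edgeR (0.00%), 305 had an unadjusted p below 0.05 (3.94%), and DESeq2 called 0 with 196 unadjusted. The treatment difference of members and of other cells of FIRE mice differed for 0 of 11181 genes in edgeR (0.00%), with 470 at an unadjusted p below 0.05 (4.20%) and 0 called by DESeq2 with 285 unadjusted.

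None of the genes of smallest p passed after adjustment. Levels by treatment, here and in the next paragraph, are CPM of all human UMIs of members after TMM scaling between mice. Across 6 Lecanemab-treated FIRE mice RASL11A, a small GTPase gene, was at 25.1, 34.5 and 71.5 CPM at the lowest, median and highest. Across 5 IgG1-treated FIRE mice it was at 10.5, 12.1 and 31.6. Its log2 difference was 1.215 ± 0.28 (SE), with an edgeR adjusted p of 0.480, and 6 of 6 treated mice lay above the IgG1 mean of their pool. PHACTR1, a regulator of actin and phosphatase 1, ranged from 93.2 to 165 after Lecanemab and from 148 to 218 after IgG1, with a log2 difference of -0.60 ± 0.14 (edgeR adjusted p = 0.480). The ranges overlapped in both genes. They did not overlap for WIPF1, which acts in actin assembly, at 57.5 to 88.6 CPM after Lecanemab and 23.7 to 47.4 after IgG1, nor for SPIRE1, an actin nucleator, at 12.2 to 32.4 and 3.16 to 11.97 (both edgeR adjusted p = 0.480).

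In mice with the enhancer intact CXCL8, a neutrophil chemokine, was at 5.98, 12.3 and 93.3 CPM in 7 Lecanemab-treated mice and at 0, 3.51 and 35.5 in 8 IgG1-treated mice, a log2 difference of 2.12 ± 0.39 (edgeR adjusted p = 0.0928). CD14, a lipopolysaccharide coreceptor, differed by 0.54 ± 0.11 (edgeR adjusted p = 0.212), and LYZ, lysozyme, by 1.95 ± 0.51 (edgeR adjusted p = 0.749). LYZ was at 518 CPM in AB01 and 161 in AB05, both Lecanemab-treated mice of libraries 1 and 2. The other Lecanemab-treated mice were at 24.6 (AB40) to 71.6, within the range of IgG1-treated mice, 16.8 to 87.5 (AB38). Leaving out AB38 gave edgeR adjusted p values of 0.00713 for CXCL8, 0.00942 for CD14, 0.00713 for LYZ and 0.0136 for S100A9, with log2 differences of 2.84, 0.62, 2.63 and 3.51. CXCL8 also passed without AB05 (2.26, edgeR adjusted p = 0.0314), LYZ without AB40 (2.78, edgeR adjusted p = 0.00746) and CHCHD6 without AB53 (2.07, edgeR adjusted p = 0.0477). CHCHD6 rested on AB40, at 168 CPM, while the other Lecanemab-treated mice were at 7.69 to 17.95 and the IgG1-treated mice at 5.68 to 21.0. In FIRE mice LYZ passed without AB16 (2.85, edgeR adjusted p = 0.00637). LYZ and S100A9 belong to the monocyte and neutrophil list, of which 3 of 4 tested genes were higher after Lecanemab in FIRE mice and 3 of 5 with the enhancer intact, and the part of such cells was not tested.

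No gene of the rule passed the adjusted threshold between treatments. Members were chosen on the summed share of these genes, so their level in members was largely set by the choice. A treatment difference in these genes therefore cannot be judged from the members. Of 85 tested in FIRE mice 51 were higher after Lecanemab and 34 lower, with a median log2 difference of 0.03, and 10 of the higher and 2 of the lower had an unadjusted p below 0.05. Of 87 with the enhancer intact 46 were higher and 41 lower, 0 at that p, with a median of 0.01. All genes tested had medians of 0.00 and 0.01, and 6.69% and 3.94% of them had an unadjusted p below 0.05. RPL34 was lower after Lecanemab by 0.15 on the log2 scale in FIRE mice (-0.15 ± 0.07, edgeR adjusted p = 0.740) and at -0.02 ± 0.06 in the others (edgeR adjusted p = 1.00). HLA-DRA differed by 0.11 ± 0.26 and 0.10 ± 0.10 (edgeR adjusted p = 0.978 and 1.00).

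Some gene groups leaned one way while 0 of their genes passed. Of 23 type I interferon genes 22 were higher after Lecanemab in members of FIRE mice (3 at an unadjusted p below 0.05, median log2 difference 0.37), and of 24 with the enhancer intact 23 were higher (2 at that p, median 0.35), and 0 passed the adjusted threshold in either. Actin and cell shape genes were higher in 18 of 19 in FIRE mice (11 at that p, median 0.25) and in 10 of 21 in the others (1 at that p). Over all genes tested 2712 of 5394 were higher in FIRE mice and 6.69% had such a p, and with the enhancer intact 4001 of 7735 were higher and 3.94% had such a p. Homeostatic genes were higher in 2 of 21 and in 4 of 21, and plaque-response genes in 9 of 20 and in 17 of 20. Nuclear oxidative phosphorylation genes were higher in 50 of 54 (3 at that p) and in 42 of 54 (0 at that p). Immediate early genes were higher in 2 of 14 (5 at that p, all lower) and in 9 of 17. Cytokine response genes were higher in 3 of 12 and in 12 of 14. Whether these groups differ between genotypes was not tested.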

How the data were processed

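Human microglia of 27 hashtagged mice were profiled in 5 droplet libraries. The authors made the deposited UMI counts with Cell Ranger (6.1.2 in the submitters' processing notes, which also name Seurat 4.2.3; the headers of libraries 1 and 2 give an earlier release), with references GRCh38 plus mm10, limited to barcodes called as cells; the counts are not normalized. Hashtags were called with HTODemux (Seurat 5.3.0, quantile 0.99) and doublets of different mice left out. Scrublet (scanpy 1.11.5) called 1 of 49989 cells and was taken as not working for doublets within a mouse.

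Human cells had at least 1000 human UMIs and at most 5% mouse UMIs. Levels were computed per library as counts per 1000000 UMIs outside the rule's genes (CPM) with a pseudocount of 1. Members, lists and rules were chosen with earlier results of these data known, and the MALAT1 limit and the genotype comparison after these values. Named genes were the markers, the 5 largest and smallest of the rule, the 12 highest and lowest outside it, list genes, and for treatment those of smallest p, beside single genes named after their values were seen (the genes called without 1 mouse, FCER1A, PLAC8 and those of the MALAT1 split); some genes that the rule names are not reported here. Members were summed per mouse (at least 20 members and 50 cells), passed through filterByExpr and TMM scaling, and compared in edgeR 4.0.16 (R 4.3.3) with a term for the pool, checked on simulated counts; DESeq2 1.42.0 was an alternative, as were other scalings, filters, thresholds and leaving out each mouse. Adjustment over all genes tested followed Benjamini and Hochberg. Shares were compared by exact permutation within pools. Cells of a mouse share animal and library and were never replicates. Promoter sequences are from RefSeq (GRCh38.p14), with no entry for RPS15A, HLA-DRA or UQCRB.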

Additional observations from a re-analysis of the deposited data

Results flagged for a closer look

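In 24 checks, of several measures in the same genotype and treatment groups of 5 to 8 mice, the highest and lowest mouse were examined. The gap to the nearest mouse over the range was compared with a limit that chance alone passes in about 1 of 20 checks. The checks are not independent of one another. Among the 8 IgG1-treated mice with the enhancer intact, AB38 was at 26.1% members, with the nearest mouse at 9.72%. AB38 was also far from the rest for members poor in MALAT1 (15.5% of its cells, nearest 6.64%) and for members that kept MALAT1 (10.6%, nearest 3.62%). Both kinds together make up all members, so these flags of AB38 are not separate observations. Among the 5 IgG1-treated FIRE mice AB16 had the lowest mean ribosomal protein share of members, 19.5% with the nearest at 26.4%, and it was the one mouse of its group in libraries 1 and 2, whose thresholds were the lowest.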

How the results depend on the processing

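Among results compared by permutation, the treatment difference of the share of members in FIRE mice (-0.43 points) and of the mean share (0.11) turned to 0.22 and -0.75 when pools were ignored. Leaving out 1 mouse gave -0.95 to 0.38 and -0.31 to 0.61 there, and -2.48 to 0.44 and -0.77 to 0.068 with the enhancer intact; leaving out AB38 before ranking turned the share with the enhancer intact from -1.39 to 0.43. No alternative of these 4 passed 0.05 (exact p 0.222 to 0.982). The genotype difference of the share kept its direction under every alternative run (-3.93 to -1.87 points without 1 mouse) and passed in all but those with mice of 1 treatment (-2.28 with Lecanemab, -4.83 with IgG1 and -1.16 with IgG1 without AB38); the genotype difference of the mean share was -1.45 to -0.863 without 1 mouse. Without a filter on low counts 32 genes were called in FIRE mice and 35 with the enhancer intact; without 1 mouse the counts were 0 to 1 and 0 to 4, and 0 to 4 for the difference between members and other cells (CD36, CH25H, LYVE1 and LYZ without AB13, CH25H without AB14, LYZ without AB16, CH25H and RASL11A without AB90). As CPM of all human UMIs, 47 genes passed upward and 213 downward in place of 148 and 121, the ribosomal proteins outside the rule had a median log2 ratio of 0.85 and class II genes 0.75 (1.08 and 0.95 as medians per library). With cells thinned to 1000 UMIs these ribosomal proteins had 1.20, MALAT1 -1.55 and 186 genes were lower; 78 were lower without cells beyond 2.5 median absolute deviations. The top 5% gave 1.20 for these proteins and the top 12% 68 lower genes. Without the 10% of cells lowest in MALAT1 the values were 0.93 for these proteins, -0.58 for MALAT1, 0.90 for the ratio of genes at 1000 UMIs (0.84 before), and 52 and 9 genes; the construction removes such cells. The cause of the other shifts was not tested. Depth limits the FIRE tests to 33 to 282 members per mouse.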
